A study of Carassius auratus with 4 samples.

Results

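The alpha and beta globin clones of a goldfish cDNA array were followed in pituitary cells with and without the peptide secretoneurin. A clone was taken as a globin where its printed name contained hemoglobin, haemoglobin, alpha globin or beta globin, with or without a hyphen, and not myoglobin. The rule used names only and found 12 of the 8099 gene clones, 7 named for an alpha chain and 5 for a beta chain. Each clone was printed in 2 spots, and all 12 had a value on all 4 arrays.

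The samples were dispersed cells from pituitaries of male and female goldfish (Carassius auratus). The treated cells were given 10 nM goldfish secretoneurin, a fragment of the granin secretogranin II, for 12 h in static culture, and the control cells are labelled as having had no incubation. Whether the control cells were also cultured for 12 h without the peptide cannot be settled from the labels, so a difference in culture is possible. Each of 4 arrays held RNA of both groups, with the secretoneurin sample in Cy5 on replicates 1 and 3 and in Cy3 on replicates 2 and 4. Whether the samples were separate cultures is not in the labels, so p-values cover no more than the spread seen among these samples, and that spread may be technical.

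Haemoglobin carries oxygen in red blood cells and is built from alpha and beta chains, each holding a haem group. The red cells of fish keep their nucleus, and globin transcripts are abundant in red cells. Chain variants are expressed at different stages of life, and alpha-D is the name of a minor alpha chain of birds and reptiles. On these arrays, 5 clones carried the name of the carp (Cyprinus carpio) alpha-globin, 1 was printed as alpha globin and 1 as haemoglobin alpha-D chain. Of the beta chains, 2 carried the name of the carp beta-globin and 3 that of haemoglobin beta chain. The names are those of the array design, and whether clones of 1 name came from the same gene is not known here. Near-identical globin genes can share hybridisation, so values are given per clone.

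No globin clone passed the test for a difference between the groups, and in both groups the globin spots were about as bright as spots printed with buffer and no DNA. Of the 12 clones, 0 exceeded background in every channel, that is, in both dyes on each of the 4 arrays, and 10.3% of all clones did. A count of 0 among 12 clones is near that share, so it does not set the globins apart. A channel counted as above background where its signal exceeded the local background by more than 2 standard deviations of that background. In no channel of any array did 5 of the clones exceed background, against 14.5% of all clones. These were the alpha clones 17e19, 35n13, 39d06 and 39m19 and the beta clone 61i09. In bulk cells such as these, fewer cells of a type and less RNA per cell cannot be told apart.

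The remaining 7 clones passed the background mark in a few channels. The alpha clones 24j23 and 40d15 and the beta clone 40a17 passed it only in the secretoneurin channel of replicate 3, and the beta clone 40k05 only in that of replicate 1. On replicate 3, 24j23 was measured by its first spot alone, since its second was marked to be ignored. The alpha clone 40f17 passed in secretoneurin cells on replicates 1 and 3 and in control cells on replicates 2 and 4. The beta clone 52l08 passed in secretoneurin cells on replicate 3 and in control cells on replicates 2 and 4, and the beta clone 59g06 in secretoneurin cells on replicate 3 and in control cells on replicate 2.

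All of these marks fell in the dye Cy5. Of 96 channel values of the globin clones, 13 were above background, 13 of them in Cy5 and 0 in Cy3. By group, 8 of 48 values passed in secretoneurin cells and 5 of 48 in control cells. Of all clones, 39.9% to 75.4% were above background in Cy5 on an array and 15.2% to 18.6% in Cy3. The Cy5 share of all clones was 52.7% and 75.4% on replicates 1 and 3, where Cy5 carried the secretoneurin sample, and 45.1% and 39.9% on replicates 2 and 4, where it carried the control. The part of the dye and of the array in the group counts of the globins was not tested.

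Buffer spots gave a second yardstick, which was added after the data had been seen. The 95th percentile of the buffer spots was taken in each channel of each array, so that 5% of buffer spots lie above it by construction. Of the 190 globin spot values, 11 (5.79%) lay above it, 6 of 95 in secretoneurin cells and 5 of 95 in control cells. Of all gene spots, between 18.8% and 36.7% lay above it in a channel. After subtraction of the local background from globin, gene and buffer spots alike, 14 globin values (7.37%) and 18.3% to 44.6% of gene spots were above the corresponding limit. The median globin clone had 1.11 to 1.39 times the median intensity of the buffer spots in the Cy5 channels and 0.954 to 1.14 times in the Cy3 channels. Clone values are means of the used spots, while the buffer medians are of single spots. The median globin spot read 169, 191, 142 and 185 in Cy5 on replicates 1 to 4 and 488, 666, 376 and 528 in Cy3. On replicates 1 to 4 the buffer medians were 158, 157, 96.8 and 149 in Cy5 and 536, 617, 367 and 466 in Cy3. The medians of all gene spots were 219, 215, 154 and 203 in Cy5 and 586, 648, 395 and 519 in Cy3. Empty spots had medians of 128, 135, 86.8 and 142 in Cy5 and 477, 577, 349 and 446 in Cy3. The median globin clone exceeded the empty median in each channel. The median globin spot exceeded that of all gene spots only in Cy3 on replicates 2 and 4.

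The clones of pituitary hormones, which define the labelled tissue, were measured in the same channels. Of their 64 spot values, 48 lay above the buffer limit. The growth hormone clones 42c08 and 15f19, the latter printed as somatotropin, exceeded background in every channel of the 4 arrays. The thyrotropin beta subunit (43k06) did so too, and the gonadotropin clone GTH-II (42g17) did not. GTH-II had a mean normalised log2 level over both channels of 8.14, against 11.5 to 13.8 for the other hormone clones. That was within the range of the globin clones, from 7.81 (40a17) to 8.64 (24j23). How well each probe hybridises is not known, so the low globin signal does not show that the transcripts were absent.

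**Figure D1:**
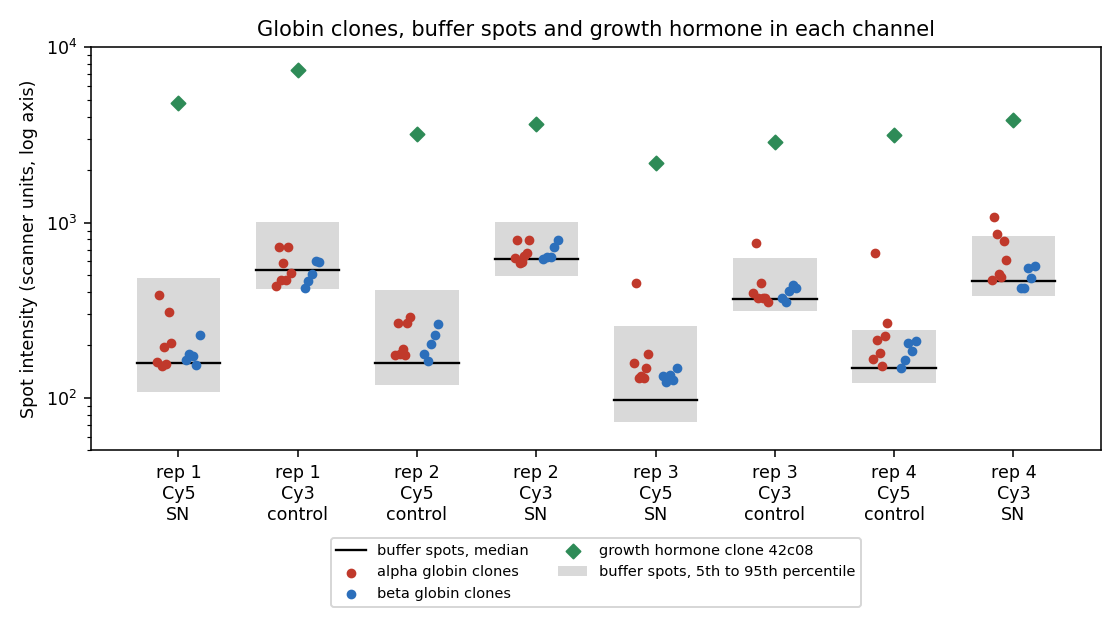
Spot intensity in scanner units (log axis) of the 12 globin clones (points, alpha red and beta blue, mean of used spots) in both channels of each array, labelled by replicate, dye and group (SN, secretoneurin). Grey bands span the 5th to the 95th percentile of the buffer spots with their median as a line, and green diamonds give the growth hormone clone 42c08. Most globin points lie within the band in both dyes and both groups, no beta clone lies above it, and the growth hormone clone lies between 2177 and 7425.

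The alpha clone 24j23 supplied 6 of the 11 values above the buffer limit, and 5 of these came from its first spot. That spot read 552 and 451 in Cy5 on replicates 1 and 3 (secretoneurin) and 331 and 1095 in Cy5 on replicates 2 and 4 (control). In Cy3 it read 922 and 762 on replicates 1 and 3 (control) and 891 and 1425 on replicates 2 and 4 (secretoneurin). Its raw readings were above the buffer median in the channels of both groups, with the highest readings of either dye on replicate 4. By the background mark the clone passed only in the secretoneurin channel of replicate 3. The second spot, printed with the same clone, read 223, 205 and 242 in Cy5 on replicates 1, 2 and 4 and was marked to be ignored on replicate 3. The local background beside the first spot also varied, from 49.6 to 394 in Cy5 and from 208 to 560 in Cy3, and was highest on replicate 4 in both dyes.

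The other 5 values above the limit came from 4 clones. The alpha clone 40d15 supplied 2 of them, and the alpha clones 35n13 and 40f17 and the beta clone 61i09 supplied 1 each. Of the 11 values, 7 were on replicate 4, in the secretoneurin channel (3) as well as the control channel (4). In the control channel of that array, Cy5, 36.7% of all gene spots were above the limit, against 18.8% to 23.1% in Cy5 on the other arrays. In its secretoneurin channel, Cy3, the share was 21.1%, against 19.9% to 20.9%. The globin count on replicate 4 is therefore not shown to be particular to the globins.

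In the comparison of secretoneurin with control cells, the limma test called none of the 12 globin clones at a Benjamini-Hochberg adjusted p of 0.05, and it called 0% of the 8088 clones tested. Unadjusted p-values under 0.05 numbered 224 of all clones tested (2.77%) and 0 of the globins, whose smallest unadjusted p in limma was 0.0849 and whose adjusted p was 0.998 throughout. The estimates ran from -0.10 to 0.15 in log2 and the 95% confidence intervals from -0.26 to 0.42. Since no globin clone was measured above background in both groups on the same array, these are ratios of signal after normalisation and not folds of transcript.

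Estimates lay above 0 for 9 globin clones and below 0 for 3, and 50.5% of all clones lay above 0. The globin median was 0.068 in log2, and that of all clones tested was 0.0014. The ratio averaged over the 12 clones was 0.058, 0.050, 0.035 and 0.082 on replicates 1 to 4, a mean of 0.056 ± 0.020 (SD, 4 arrays). The median over the same clones was 0.11, 0.081, -0.019 and 0.069, so on replicate 3 the mean and the median differed in sign. Over all clones, replicates 2 and 4, which share their dye orientation, had ratios that correlated at r = -0.61, across 7952 clones that are not independent replicates. The labels and the scanner headers gave the same dyes on all 4 arrays, so the direction was kept. With the sign of replicate 2 turned, 7 globin clones lay above 0 and the globin median was 0.034, and with that of replicate 4 turned the numbers were 6 clones and 0.0026.

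**Figure D2:**
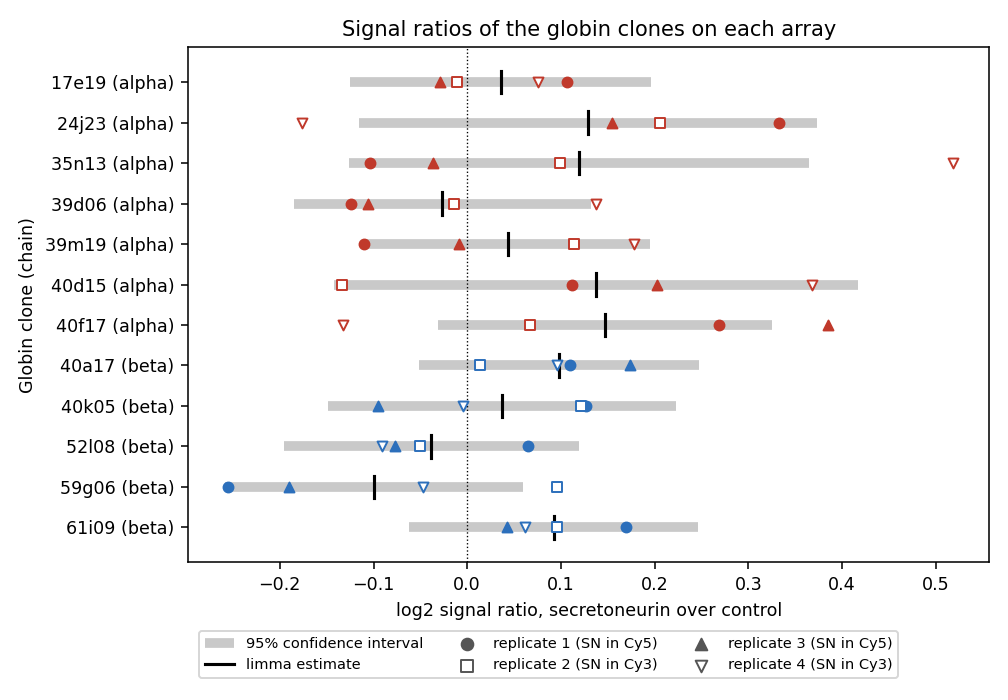
Log2 signal ratio of secretoneurin over control (horizontal axis) of each globin clone (rows; alpha red, beta blue) on each array (symbols; filled where secretoneurin was in Cy5, open where it was in Cy3), with the limma estimate (black bar) and its 95% confidence interval (grey). Every interval spans 0, and the symbols of 10 of the 12 clones fall on both sides of it.

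The alpha chains had a mean ratio of 0.069, 0.047, 0.080 and 0.138 on replicates 1 to 4 (0.084 ± 0.039, SD, 4 arrays). Among the carp alpha-globin clones, 40f17 had the highest estimate, 0.15 ± 0.065 (SE, 4 arrays), with array ratios of 0.27, 0.07, 0.38 and -0.13. Its normalised log2 levels were 8.01, 8.41, 8.18 and 8.14 in secretoneurin cells and 7.74, 8.34, 7.80 and 8.28 in control cells on replicates 1 to 4. The groups overlapped, and the control exceeded secretoneurin on replicate 4. With the first spot alone its estimate was 0.28 and with the second alone 0.017, and limma called neither. It was also the globin with the lowest unadjusted p for the dye itself, as given below.

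Clone 24j23, with the bright first spot, had ratios of 0.33, 0.21, 0.15 and -0.18 and an estimate of 0.13 ± 0.089. Its levels in log2 were 8.53, 8.37, 9.18 and 8.74 in secretoneurin cells and 8.20, 8.16, 9.02 and 8.92 in control cells. The levels of both groups were higher on replicates 3 and 4 than on replicates 1 and 2. On replicate 3 they came from the bright first spot alone, and on the other arrays from the mean of both spots. The first spot itself read lower on replicate 3 than on replicate 1 in both dyes, so these levels do not compare the arrays alike. The estimate was -0.0067 with the first spot alone and 0.31 ± 0.095 with the second alone (limma unadjusted p = 0.0360, adjusted p = 0.999). It was 0.034 without replicate 2 and 0.22 without replicate 4. This clone, 40d15, 40a17 and 40k05 were above background only in secretoneurin cells and on 1 array each, so no fold or lower bound is given for them. Clones other than globins, such as 12l13 and 12l19, had the same counts, and others, such as 12o08, passed only in control cells. The share of all clones with either pattern was not taken, so the pattern is not shown to be particular to the globins.

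Clone 40d15 had ratios of 0.11, -0.13, 0.20 and 0.37 and an estimate of 0.14 ± 0.10, which was 0.012 without replicate 4 and 0.26 without replicate 2. Clone 35n13 had ratios of -0.10, 0.10, -0.04 and 0.52 and an estimate of 0.12 ± 0.090, which was 0.015 without replicate 4 and 0.22 without replicate 2. Limma called neither clone without replicate 2, a fit that leaves replicate 4 alone in its dye orientation. Both clones had their highest ratio on replicate 4, the array with most of the globin values above the buffer limit. The share of all gene spots above that limit was also highest there in either dye. The fifth carp alpha-globin clone, 39d06, had ratios of -0.12, -0.01, -0.11 and 0.14 and an estimate of -0.027 ± 0.058. The 5 clones of this name thus ranged from -0.027 to 0.15, with a mean of 0.10, and their standard errors were between 0.058 and 0.10. Clone 39m19, printed as alpha globin, had ratios of -0.11, 0.11, -0.01 and 0.18 and an estimate of 0.043 ± 0.056. The alpha-D chain clone 17e19 had ratios of 0.11, -0.01, -0.03 and 0.08 and an estimate of 0.036 ± 0.059. Neither had a channel above background.

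The beta chains had a mean ratio of 0.043, 0.055, -0.029 and 0.003 on replicates 1 to 4 (0.018 ± 0.039, SD, 4 arrays). The carp beta-globin clone 40a17 had ratios of 0.11, 0.01, 0.17 and 0.10 and an estimate of 0.098 ± 0.055, and the haemoglobin beta chain clone 61i09 had ratios of 0.17, 0.10, 0.04 and 0.06 and an estimate of 0.092 ± 0.056. These 2 were the only globin clones above 0 on all 4 arrays, where 5.17% of all clones were, and 0 globin clones were below 0 on all 4, where 5.55% of all clones were. Clone 40a17 had levels of 7.82, 7.83, 7.95 and 7.85 in secretoneurin cells and 7.71, 7.82, 7.77 and 7.76 in control cells. For 61i09 the levels were 8.01, 8.08, 7.95 and 8.03 in secretoneurin cells and 7.84, 7.99, 7.91 and 7.97 in control cells. The levels of both groups overlapped for 61i09, while for 40a17 the lowest secretoneurin level and the highest control level were equal to the second decimal. Of their channels, only 1 of 40a17 and none of 61i09 was above background, and limma called neither.

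The second carp beta-globin clone, 40k05, had ratios of 0.13, 0.12, -0.10 and -0.005 and an estimate of 0.037 ± 0.068. The haemoglobin beta chain clone 59g06 had the lowest estimate of the globins, -0.10 ± 0.058, with ratios of -0.26, 0.10, -0.19 and -0.05. Clone 52l08, of the same name, had ratios of 0.07, -0.05, -0.08 and -0.09 and an estimate of -0.038 ± 0.057. The 3 clones named haemoglobin beta chain therefore lay on both sides of 0, from -0.10 to 0.092 with a mean of -0.015. Clones 59g06 and 52l08 were, with 40f17, the globins that exceeded background in both groups, though never in both on the same array.

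The 2 spots of a clone gave a further view of the error, since they were hybridised together. Over 47 pairs of used spots, the log2 ratios of the first and the second spot differed by a median of 0.23 (lowest 0.0032, highest 0.83). In 25 of the 47 pairs (53.2%) the spots had opposite signs. Neither measure was taken over all clones, so neither is shown to be particular to the globins. The first spot was the brighter in 68 of 94 channel values (72.3%), and among all clones this share was between 48.2% and 77.4% in a channel.

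**Figure D3:**
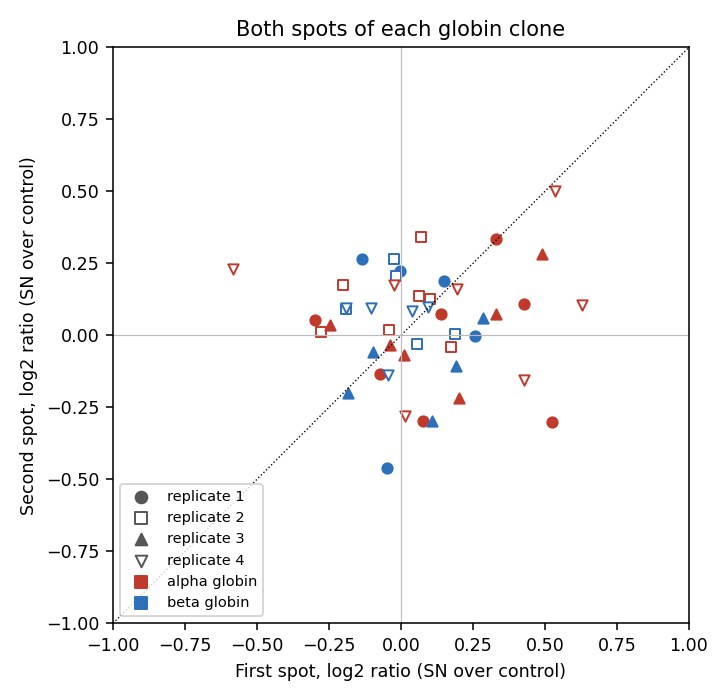
Log2 ratio of secretoneurin over control at the first spot (horizontal axis) and at the second spot (vertical axis) of each globin clone on each array, 47 pairs, with symbols for the replicates (open where secretoneurin was in Cy3) and colours for the chains. The dotted line marks equal ratios, and the points scatter on both sides of 0 on both axes, with 25 pairs of opposite sign.

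Many globin clones shared a row number within their print blocks, and these blocks lay at several places on the slide. Row 9 of the print blocks held 7 of the 12, with a median estimate of 0.098, while the 449 other clones of that row had a median of -0.0094. The 5 globin clones in other rows had a median of 0.036. By the plate number in the clone IDs, plate 40 supplied 4 of the clones and plate 39 supplied 2. The part of position or plate in the ratios was not tested.

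The dye effect, Cy5 over Cy3 after normalisation, was fitted beside the secretoneurin effect. Limma called 0% of clones for it at an adjusted p of 0.05 and 538 (6.65%) had an unadjusted p under 0.05, of which 1 was a globin. This was 40f17, with a dye effect of 0.18 ± 0.065 in log2 (limma unadjusted p = 0.0488, adjusted p = 0.716). Its ratios were highest on replicates 1 and 3, the arrays with secretoneurin in Cy5. The other globin dye effects lay between -0.19 and 0.11, and over the 12 clones 7 were above 0 and 5 below.

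A list of other clones matched by words for red cells and haem gave no called difference in limma either. The list held 22 clones, among them 7 of adducin, 4 of nesprin and 2 of carbonic anhydrase, and several of its proteins are also made outside red cells. The printed names of clones 54f08 and 22k20 call them non-erythroid, and the name of nesprin-1 holds the words spectrin repeat. The list is therefore not specific to red cells. Of the 22, 0 passed an adjusted p of 0.05 in either direction, 1 had an unadjusted p under 0.05, 8 estimates were above 0 and 14 below, and the median was -0.038. Among all clones tested, 2.77% had an unadjusted p under 0.05 in limma. Of the 22 clones, 0 exceeded background in every channel, where 10.3% of all clones did. Background was exceeded in no channel by 3 of the 22, and by 14.5% of all clones in none. Anion exchange protein 2 (54f08), a chloride and bicarbonate exchanger of many tissues, had ratios of 0.21, 0.28, 0.21 and 0.10. Its unadjusted p in limma was 0.0280 and its adjusted p 0.998. Its signal exceeded background on 2 arrays in secretoneurin cells and on none in control cells. Clones outside the list, such as 12n03 and 12o01, had the same counts, and the share of all clones with them was not taken. Nesprin-1 (58o21), which ties the nucleus to the cytoskeleton, had an estimate of -0.22 ± 0.11, and delta-aminolevulinic acid dehydratase (15d15), an early enzyme of haem synthesis, one of -0.11 ± 0.060.

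The brightest clones of that list had wide errors. The clone of the erythrocyte membrane protein of elliptocytosis 1 (53b17), which links spectrin to the membrane, had ratios of 0.08, 1.28, 0.25 and -1.39 and an estimate of 0.053 ± 0.47. The alpha chain of brain spectrin (22k20), a cytoskeletal protein, had ratios of 0.13, 0.75, -0.36 and -0.34 and an estimate of 0.045 ± 0.21. Both were highest on replicate 2 and below 0 on replicate 4, which are of the same dye orientation.

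Lists of clones matched by words for leukocytes and muscle, cells that could come with blood or tissue, were set beside the globins. The words were sought in the printed names, and whether the matched genes are specific to those cells was not tested. The leukocyte list held 46 clones, of which 45 were tested. Its median estimate was -0.031, and 8 of its clones (17.4%) exceeded background in every channel. The muscle list held 87 clones with a median of -0.0071, and 10 of them (11.5%) did so. Limma called 0 clones of either list. Unadjusted p-values under 0.05 in limma were found for 5 of 45 leukocyte and 3 of 87 muscle clones, against 2.77% of all clones tested. Leukocyte estimates lay above 0 for 15 clones and below 0 for 30, and muscle estimates for 42 and 45, where 50.5% of all clones lay above 0. The growth hormone clones had estimates of -0.062 ± 0.060 (42c08) and -0.049 ± 0.10 (15f19, printed as somatotropin). Those of the other hormone clones were -0.043 ± 0.072 for GTH-II and -0.0047 ± 0.052 for the thyrotropin beta subunit. A clone described as a zebrafish sequence with a globin domain (42b05) lay outside the naming rule, and its estimate was -0.11 ± 0.11.

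Genes with array ratios most like the globin average were sought among 239 named clones that exceeded background in every channel. The measure was the root mean square difference over the 4 arrays, which had a median of 0.23 over these clones. The nearest was a clone of the large neutral amino acids transporter small subunit 2 (59n08), at 0.054, with ratios of 0.11, 0.12, 0.09 and 0.11. Beta-2-microglobulin (27d07), the light chain of class I histocompatibility molecules, followed at 0.064, and ictacalcin (40b05), a calcium-binding protein, and CD166 (23m06), a cell adhesion molecule, at 0.067. The fifth was UPF0172 protein C14orf122 (53h15), at 0.068. Since the globin average was close to 0 on each array, this likeness picks clones that were close to 0 as well.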

How the data were processed

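Goldfish cDNA arrays, 4 with 2 channels each, compared pituitary cells given secretoneurin with control cells. Per the file headers, the authors' scanner output gives linear intensity and local background for 17328 spots in each dye, unsubtracted, with the background's standard deviation and an ignore mark per spot. The authors' deposited table holds log2 ratios, and the sources used here do not give their calculation. The columns of that table, matched to the scanner ratios (r = 0.861 to 0.923), are Cy5 over Cy3, with array medians of 0.0037, 0.031, 0.0037 and -0.046, and its normalisation stays unknown. It served only as an alternative.

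The 1130 control or empty spots per array entered no test. Background was corrected by normexp (offset 50) and ratios were normalised within arrays by loess (4 iterations, span 0.3), with limma 3.58.1 and R 4.3.3. Used spots of a clone were averaged, and the ratios were signed as secretoneurin over control. Clones with values on at least 3 arrays (8088 of 8099) were tested with lmFit and eBayes, two-sided, with a dye effect beside the secretoneurin effect (2 residual degrees of freedom) and Benjamini-Hochberg adjustment over all clones at 0.05. The fit was run on simulated data with noise that was independent between arrays and of equal spread for every clone. Such data do not hold the opposed ratios of replicates 2 and 4, so that run does not bear on them. The number of arrays limits the precision, and the median standard error was 0.071 in log2.

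Every globin clone is named. Of the red cell list the 3 clones of smallest unadjusted p and the 2 brightest are named, of the hormone list all, and of the genes most like the globins the nearest 5. Members and lists were chosen with earlier results of these data known. Sequences of the clones are not given here.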

Additional observations from a re-analysis of the deposited data

How the results depend on the processing

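Alternatives were no background correction, loess within print blocks, median centring, keeping ignored spots, no dye effect, either spot alone, the authors' deposited table and leaving out each array. Limma called 0 globin clones for secretoneurin under all of these, and 0 for the dye under those that fitted a dye effect. Restricting the test to clones above background left no globin clone and gives no value. Over all clones, leaving out each array in turn gave 0 to 436 calls for secretoneurin and 0 to 433 for the dye. The secretoneurin calls were 346 without replicate 2 (37 higher, 309 lower) and 436 without replicate 4 (419 higher, 17 lower), opposite in their main direction. Leaving out any array leaves 1 array alone in its dye orientation, its spread assumed equal to that of the others. Without replicate 2 or 4 the spread comes from replicates 1 and 3 (r = 0.25 over all clones). Without replicate 1 or 3 it comes from replicates 2 and 4 (r = -0.61). The part of this in the number of calls was not tested. With no dye effect, a setting added after seeing the data, the secretoneurin calls without replicate 2 and those without replicate 4 were 0. The globin median was 0.124 in the authors' deposited table, 0.048 with loess within print blocks and 0.021 to 0.087 when each array was left out. Loess within print blocks gave lower estimates than the main fit for 24j23 (0.036), 40d15 (0.032) and 35n13 (0.065). For 40f17 it gave 0.14, and some clones, such as 40a17 (0.12) and 17e19 (0.062), stood higher than in the main fit.

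Signs of some estimates turned, among them 40d15, 24j23 and 35n13, with 3 of the 4 highest estimates, and the cause was not tested. For secretoneurin over control, 24j23 stood at -0.0067 with the first spot only. With the second spot only 39d06 stood at 0.027, 39m19 at -0.057, 40d15 at -0.027 and 52l08 at 0.041. Clone 52l08 also stood at 0.015 with median centring and at 0.0028 in the authors' deposited table. Leaving out each array gave -0.064 to 0.011 for 39d06 and -0.018 to 0.093 for 40k05. Without replicate 4 and with no dye effect, 35n13 stood at -0.014 and 39m19 at -0.0015. For the dye effect, no background correction gave -0.025 for 17e19, -0.12 for 40d15, -0.10 for 52l08 and -0.086 for 61i09. Loess within print blocks gave -0.015 for 17e19, 0.038 for 40k05 and -0.076 for 61i09, and median centring -0.010 for 40d15 and 0.022 for 40k05. The first spot gave 0.12 for 40k05, and the second -0.048 for 17e19, 0.017 for 39d06, -0.086 for 40d15 and -0.00077 for 61i09. The authors' deposited table gave -0.0015 for 40d15, 0.064 for 40k05 and -0.075 for 61i09. Leaving out each array gave -0.031 to 0.037 for 17e19, -0.11 to 0.15 for 40d15, -0.077 to 0.034 for 40k05, -0.0029 to 0.068 for 52l08 and -0.018 to 0.045 for 61i09.

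Every ratio pairs the 2 RNAs of an array. No paired analysis was possible beyond this, because the arrays of the 2 dye orientations share no replicate number. Globin signals about as bright as the buffer spots limit what these ratios can show.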
